A study of Mus musculus with 16 samples.

Results

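The 6 genes *Inhbb*, *Tgfb1*, *Ltbp4*, *Acvr1*, *Acvrl1* and *Acvr2b*, which act in activin and transforming growth factor beta (TGF-beta) signalling, were measured in the colonic mucosa of mice with chemically induced colitis and of healthy mice. They were chosen by gene name from a mouse inflammation panel for real-time PCR, and they make up 6 of the 584 genes and 7 of the 648 assays measured. *Ltbp4* has 2 assays, which were averaged, and the other genes have 1 each. The 16 samples form 4 groups of 4. The DNBS + CEC group was given DNBS (dinitrobenzene sulfonic acid), which provokes hapten-type colitis, into the rectum and an oral agent that the labels call only CEC. The DNBS + Nissle group received rectal DNBS and oral Nissle, the name of a probiotic *Escherichia coli* strain. The DNBS group received rectal DNBS and oral phosphate-buffered saline (PBS), and the Healthy group received PBS by both routes. All samples are total RNA of colonic mucosa from mice. The strain, age, dose and time after DNBS are not given in the sources used here, and the submitters wrote that RNA of the mice was pooled although each sample carries its own number, so the p-values measure only the spread between these samples, which may be pools or single mice.

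Activins are dimers of inhibin beta chains. Like TGF-beta they bind a type II receptor, which recruits and phosphorylates a type I receptor, and the type I receptor phosphorylates SMAD proteins that enter the nucleus. TGF-beta is secreted in a latent form held in the matrix by latent TGF-beta binding proteins. In the gut the pathway is known for restraining T cells, for IgA class switching and for epithelial repair and fibrosis. *Inhbb* encodes the beta B chain of activin B, and *Tgfb1* encodes the main TGF-beta of immune cells. *Ltbp4* encodes a latent TGF-beta binding protein that is also needed for elastic fibre assembly. *Acvr1* (ALK2) and *Acvrl1* (ALK1) encode type I receptors, the second found mostly in endothelium, and *Acvr2b* encodes a type II receptor for activins.

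The stretches around the annotated starts of *Inhbb* and *Ltbp4* are shown because these genes had the highest and the lowest difference from healthy mucosa of the 6 in the mean of the 3 DNBS groups. Each runs from 250 bases before to 50 bases after the start, 5′ to 3′ on the gene's strand, which is the minus strand for both, and was taken from RefSeq on GRCm38.p6. Such an entry was matched for 5 of the 6 genes, all but *Acvrl1*. Capitals mark GTCT or its reverse complement AGAC, the core of the sequence that SMAD proteins bind. The *Inhbb* stretch lies at chr1:119422199-119422498, and *Ltbp4* has separate starts with stretches at chr7:27337563-27337862 and chr7:27333599-27333898. A further *Ltbp4* entry, at chr7:27333614-27333913, overlaps the latter stretch and is not shown.
Inhbb: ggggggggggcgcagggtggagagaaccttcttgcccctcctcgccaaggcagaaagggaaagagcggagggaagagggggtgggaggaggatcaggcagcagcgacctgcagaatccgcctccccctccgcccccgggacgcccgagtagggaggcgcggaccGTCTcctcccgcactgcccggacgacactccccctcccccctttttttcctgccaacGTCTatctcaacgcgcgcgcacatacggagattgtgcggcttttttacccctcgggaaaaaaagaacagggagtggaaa
Ltbp4 start 1: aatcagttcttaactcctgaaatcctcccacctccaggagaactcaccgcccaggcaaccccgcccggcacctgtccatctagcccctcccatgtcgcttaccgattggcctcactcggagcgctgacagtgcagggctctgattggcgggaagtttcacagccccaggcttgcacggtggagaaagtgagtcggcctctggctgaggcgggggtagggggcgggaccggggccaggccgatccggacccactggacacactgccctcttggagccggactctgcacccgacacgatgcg
Ltbp4 start 2: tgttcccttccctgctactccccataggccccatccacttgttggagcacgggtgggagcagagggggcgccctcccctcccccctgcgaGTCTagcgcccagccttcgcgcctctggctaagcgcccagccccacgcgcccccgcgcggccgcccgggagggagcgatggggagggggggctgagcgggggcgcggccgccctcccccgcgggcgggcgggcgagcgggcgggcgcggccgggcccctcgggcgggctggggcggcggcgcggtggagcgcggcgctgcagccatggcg
The *Inhbb* stretch held 2 matches to GTCT or AGAC, and the *Ltbp4* stretches held 0 and 1. Of 32544 mouse promoters of 300 bases, 88% held at least 1 match and the median was 2. The GC box GGGCGG or its complement CCGCCC occurred 1 time in the *Inhbb* stretch and 3 and 7 times in the *Ltbp4* stretches, against at least once in 35.9% of all promoters. The *Ltbp4* entry not shown held 9. TGANTCA, the AP-1 motif, which reads alike on both strands, was in none of the 3 stretches shown and in 7.79% of all promoters. These matches describe letters and not binding sites.

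The authors deposited raw cycle thresholds (Ct), the PCR cycle at which an assay's fluorescence crosses its threshold. A level is given here as -ΔCt, the Ct averaged over 13 reference genes minus that of the gene, both in the same sample. It is a log2 scale on which 1 unit is about a doubling of RNA, if amplification is perfect, and it compares samples for 1 gene but not 1 gene with another. A Ct above 28 was treated as not detected. Between 528 and 564 of the 648 assays were detected per sample. Epithelial *Krt8* and *Cftr* were detected in all 16 samples, at Ct 14.6 to 18.2 and 19.5 to 20.6. A set of 3 samples stood apart: DNBS + CEC sample 2, DNBS + Nissle sample 4 and Healthy sample 6 deviated from their group means together, with correlations of 0.435 to 0.617 across 412 genes, which are not independent replicates. Such joint deviation was not particular to these 3. The highest correlation between samples of different groups was 0.646, for DNBS sample 5 and DNBS + Nissle sample 7. DNBS + CEC sample 1 and DNBS sample 3 had 0.428. DNBS + Nissle sample 1 and Healthy sample 3 hold 61 and 57 values identical to the average Ct of the 3 remaining samples in the group, and so look filled in.

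*Inhbb* was the 1 gene of the 6 that passed the test against healthy mucosa (limma across all genes, Benjamini-Hochberg adjusted p under 0.05). It rose in the DNBS + Nissle group and in the mean of the 3 DNBS groups, and *Ltbp4* lay lower in every comparison with Healthy without passing. With Nissle, 1 of the 6 genes passed, against 2.41% of the 457 genes tested, and 2 did not overlap with Healthy, against 13.8%. For the mean of the 3 DNBS groups, 1 of 6 passed, against 1.99% of 453 genes, and none was free of overlap, against 1.99%. For DNBS alone, 0 of 6 passed, against 1.09% of 457 genes. An unadjusted p under 0.05 was found for 2 of the 6, against 45 of the 457 genes. The same 2, *Inhbb* and *Ltbp4*, did not overlap, against 8.53%. For DNBS + CEC, 0 of 6 passed and 0% of 458 genes did, although 25 genes and 1 of the 6 had an unadjusted p under 0.05, and 0 of the 6 were free of overlap, against 3.49%. The median of the 6 differences was -0.13, -0.01, -0.02 and 0.11 in these comparisons, against -0.09, 0.02, 0.12 and 0.08 over all genes tested.

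*Inhbb*, the activin B chain, had levels of -5.28, -7.14, -7.32 and -7.39 in DNBS + CEC samples 1, 2, 6 and 8. It had -6.18, -5.72, -6.23 and -6.17 in DNBS + Nissle samples 1, 4, 5 and 7, of which the first equals the mean Ct of the other 3 samples. The DNBS samples 2, 3, 4 and 5 had -6.57, -5.42, -6.02 and -6.62, and Healthy samples 3 to 6 had -7.78, -8.03, -7.30 and -8.35. Raw *Inhbb* Ct was 26.6 to 27.9 in Healthy, close to the detection limit of 28, and 24.4 to 27.0 in the groups given DNBS. All 4 DNBS + Nissle samples and all 4 DNBS samples lay above the highest Healthy sample, while in the DNBS + CEC group 2 samples lay above it and 2 inside the Healthy range. The group means were -6.78 ± 1.01, -6.08 ± 0.24 and -6.16 ± 0.56 under DNBS with CEC, Nissle and PBS, and -7.86 ± 0.44 in Healthy (SD, n = 4 each).

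The DNBS + Nissle group exceeded Healthy by 1.79 ± 0.44 (SE, log2), a 3.46-fold higher *Inhbb* level (limma, adjusted p = 0.0405). The mean of the 3 DNBS groups exceeded Healthy by 1.53 ± 0.36, or 2.88-fold (adjusted p = 0.0361). Of its 12 samples, 10 were above the highest Healthy sample, and 1 of these 10 holds a filled-in value. DNBS alone was 1.71 ± 0.44 above Healthy, or 3.27-fold, with an adjusted p of 0.104 and a 95% confidence interval of 0.77 to 2.65. DNBS + CEC was 1.08 ± 0.44 above Healthy (2.11-fold, adjusted p = 0.772), and 0.58 without its sample 1 (adjusted p = 0.995). *Inhbb* was higher than in Healthy under all 34 alternative settings in each of these comparisons, but its call was lost in 18 of them for DNBS + Nissle and in 14 for the mean of the 3 groups. With the filled-in values taken as missing, the DNBS + Nissle difference was 1.82 and no longer passed (adjusted p = 0.094), while the mean of the 3 groups passed (1.54, adjusted p = 0.0498). Leaving out any 1 of the DNBS + Nissle samples, or Healthy sample 3, 4 or 6, or DNBS sample 2, 4 or 5, ended the DNBS + Nissle call, with adjusted p of 0.0522 to 0.156. Leaving out DNBS + Nissle sample 1 or 4, or any 1 Healthy sample, ended that of the 3 groups (0.0501 to 0.187), and DNBS alone passed without DNBS + CEC sample 1 (0.0176). Without the 3 samples that stand apart the differences were 1.51 and 1.36, with adjusted p = 0.266 and 0.216.

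**Figure D1:**
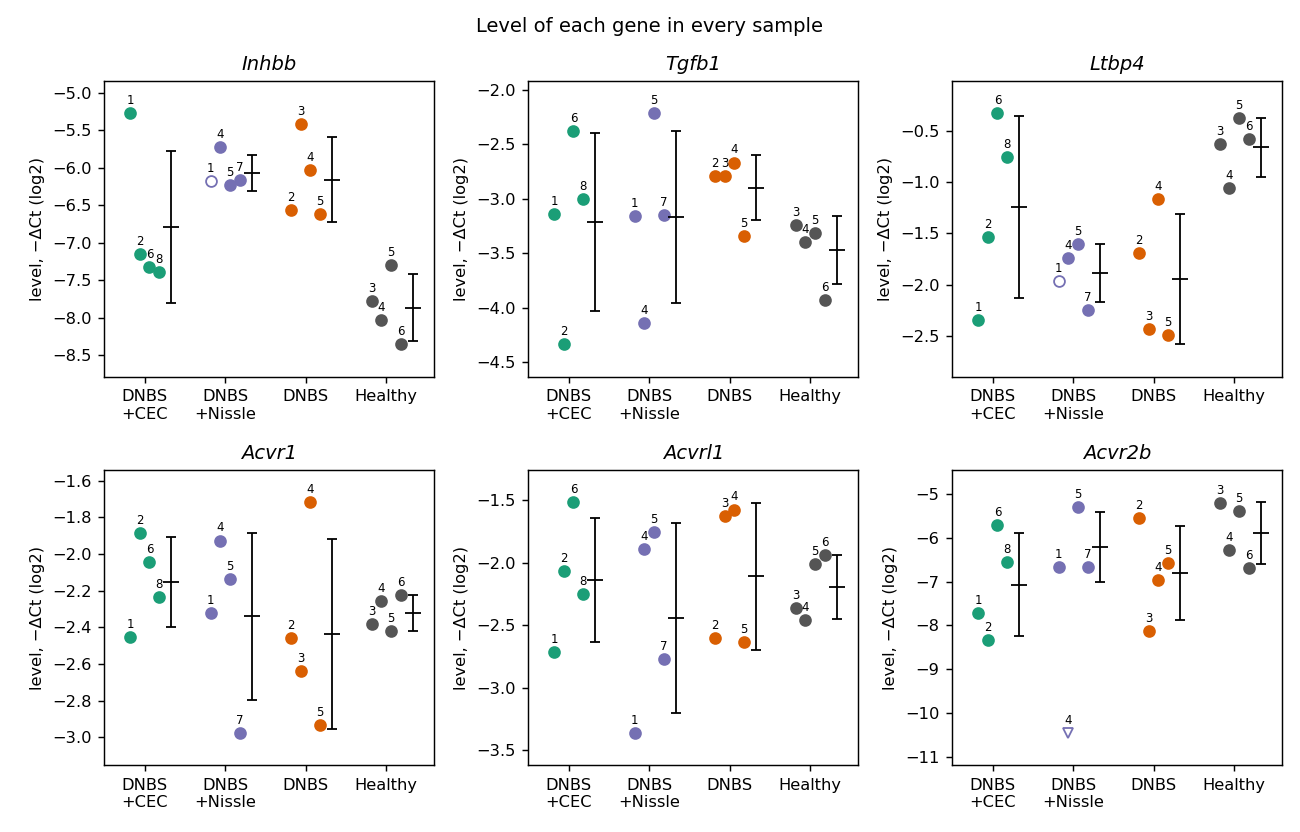
Level (-ΔCt, log2) of each gene in every sample, labelled with its sample number; open circles are samples with a filled-in value, the open triangle is an undetected value, and bars are the mean and SD of the detected values (n = 4, or 3 for *Acvr2b* with Nissle). The *Inhbb* levels under DNBS with Nissle and with PBS sit between -6.62 and -5.42, all above the highest Healthy sample at -7.30.

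*Tgfb1* passed in no comparison. Its levels in the DNBS + CEC samples were -3.14, -4.34, -2.38 and -3.004, and in the DNBS + Nissle samples they were -3.16, -4.14, -2.22 and -3.15. In the DNBS samples they were -2.79, -2.79, -2.67 and -3.34, against -3.24, -3.39, -3.31 and -3.93 in Healthy. The lowest sample of the DNBS + CEC, DNBS + Nissle and Healthy groups was in each case the one that stood apart. Of the 12 samples given DNBS, 9 lay above the highest Healthy sample, 2 below the lowest one and 1 inside the Healthy range. The difference from Healthy was 0.25 ± 0.43 for DNBS + CEC, 0.30 ± 0.43 for DNBS + Nissle and 0.57 ± 0.43 for DNBS (adjusted p = 0.953, 0.836 and 0.760). For the mean of the 3 groups it was 0.37 ± 0.35, with a 95% confidence interval of -0.37 to 1.12, which includes no difference as well as a 2-fold one. Without the 3 samples that stand apart it was 0.45 (adjusted p = 0.586).

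*Ltbp4*, the binding protein of latent TGF-beta, had levels of -2.35, -1.53, -0.33 and -0.75 in the DNBS + CEC samples. It had -1.97, -1.74, -1.60 and -2.25 in the DNBS + Nissle samples, the first partly from a filled-in value of 1 assay. The DNBS samples had -1.69, -2.44, -1.17 and -2.50, against -0.63, -1.06, -0.38 and -0.58 in Healthy. All 8 samples given DNBS with Nissle or PBS lay below the lowest Healthy sample, as did DNBS + CEC samples 1 and 2, while sample 8 of that group lay inside the Healthy range and sample 6 above it. The means were -1.24 ± 0.89, -1.89 ± 0.29 and -1.95 ± 0.64 with CEC, Nissle and PBS under DNBS, and -0.66 ± 0.29 in Healthy (SD, n = 4 each).

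None of the *Ltbp4* differences passed. DNBS minus Healthy was -1.29 ± 0.42 (adjusted p = 0.255), a 2.44-fold lower level. DNBS + Nissle minus Healthy was -1.23 ± 0.42 (adjusted p = 0.183), and DNBS + CEC minus Healthy was -0.58 ± 0.42 (adjusted p = 0.916). The last value moved to -0.21 without DNBS + CEC sample 1 and to -0.89 without sample 6 (adjusted p = 0.995 and 0.593). The mean of the 3 DNBS groups was -1.03 ± 0.34 from Healthy (adjusted p = 0.166), with an interval of -1.76 to -0.31. Both assays gave the same sign: DNBS minus Healthy was -1.46 by one and -1.12 by the other, DNBS + Nissle minus Healthy was -1.31 and -1.15, and DNBS + CEC minus Healthy was -0.57 and -0.59. *Ltbp4* was lower than in Healthy under all 35 alternative settings in each comparison. It passed in 1 of them for DNBS + Nissle, with only the compared groups in the fit (adjusted p = 0.0384), and in 1 for the mean of the 3 groups, with sample weights (adjusted p = 0.0461).

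**Figure D2:**
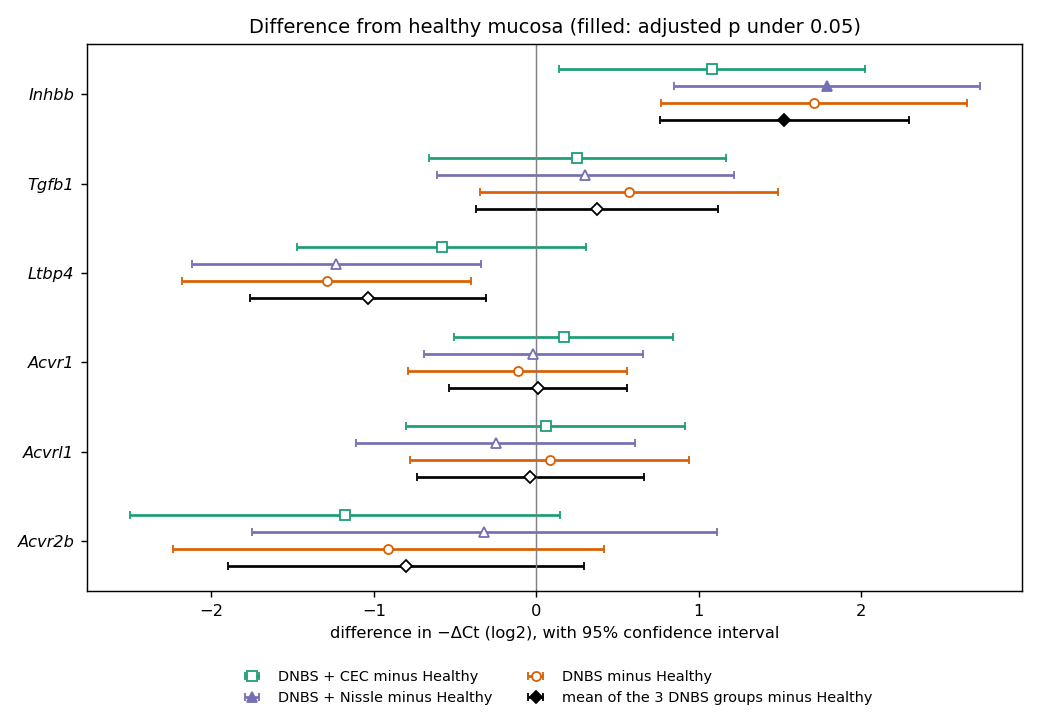
Difference of each gene from Healthy in -ΔCt (log2) with its 95% confidence interval, for DNBS + CEC, DNBS + Nissle, DNBS and the mean of the 3; filled symbols passed the test. All *Inhbb* intervals lie to the right of 0 and those of *Ltbp4* to the left, except that of *Ltbp4* with DNBS + CEC, while the intervals of *Tgfb1*, *Acvr1*, *Acvrl1* and *Acvr2b* all include 0.

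The distance between *Ltbp4* and *Inhbb* within a sample needs no reference gene and describes both differences together. The Ct of *Ltbp4* minus that of *Inhbb* was -2.92, -5.61, -7.00 and -6.64 cycles in the DNBS + CEC samples. It was -4.21, -3.98, -4.63 and -3.92 in the DNBS + Nissle samples, -4.87, -2.98, -4.86 and -4.12 in the DNBS samples, and -7.15, -6.97, -6.92 and -7.78 in Healthy. Every sample given DNBS with Nissle or PBS lay above the Healthy range, whose upper end is -6.92, as did DNBS + CEC samples 1, 2 and 8, while sample 6 of that group lay inside it. The mean was 3.02 cycles above Healthy with Nissle, 2.997 with PBS and 1.66 with CEC, where the SD was 1.84. This pair was chosen with the levels known, so the distance carries no test. The Ct of *Ltbp4* minus that of *Tgfb1* was -1.97 ± 0.85 with CEC, -1.28 ± 0.79 with Nissle and -0.95 ± 0.48 with PBS under DNBS, against -2.81 ± 0.44 in Healthy (SD, n = 4 each).

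**Figure D3:**
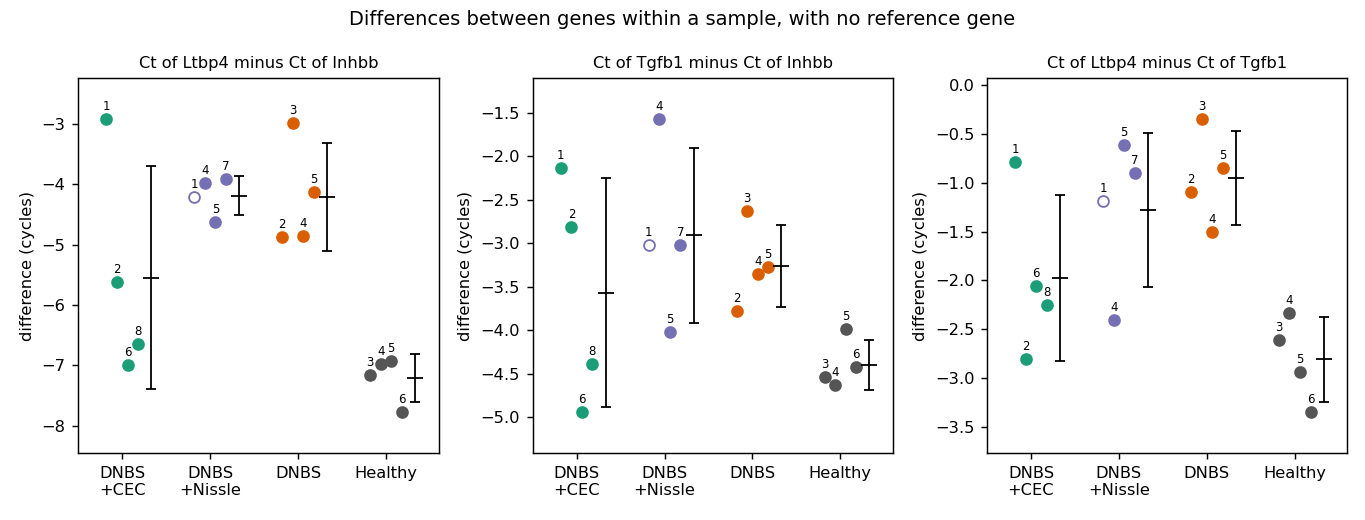
Ct differences in cycles between pairs of genes within each sample, with group mean and SD (n = 4 each); numbers are sample numbers and open circles hold a filled-in value. For *Ltbp4* minus *Inhbb*, the DNBS + CEC samples spread from -7.00 to -2.92 and the Healthy samples from -7.78 to -6.92.

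The type I receptors *Acvr1* and *Acvrl1* showed no difference that the test could detect. *Acvr1* had means of -2.15 ± 0.25, -2.34 ± 0.45 and -2.44 ± 0.52 under DNBS with CEC, Nissle and PBS, and -2.32 ± 0.10 in Healthy (SD, n = 4 each). Its difference from Healthy was 0.17 ± 0.32 for DNBS + CEC, -0.02 ± 0.32 for DNBS + Nissle and -0.12 ± 0.32 for DNBS, and the interval for the mean of the 3 groups was -0.54 to 0.56. The Healthy samples spanned 0.20, from -2.42 to -2.22, while the DNBS samples spanned 1.22 and the DNBS + Nissle samples 1.05. These spans depend on the reference genes. Raw *Acvr1* Ct had an SD of 0.41 cycles in Healthy, 0.24 in DNBS and 0.48 in DNBS + Nissle. Without *Ywhaz* and *Rplp2* among the reference genes, deviations from the group mean were -0.41 to 0.33 in Healthy and -0.34 to 0.64 in DNBS. *Acvrl1* had means of -2.14 ± 0.49, -2.44 ± 0.76 and -2.11 ± 0.59 under DNBS with CEC, Nissle and PBS, and -2.19 ± 0.26 in Healthy. Its differences from Healthy were 0.06 ± 0.41, -0.25 ± 0.41 and 0.08 ± 0.41, and the interval for the mean of the 3 groups was -0.74 to 0.66. The sign of these differences turned with the setting, so neither gene is given a direction. The DNBS samples of *Acvrl1* lay on either side of the Healthy range of -2.46 to -1.94. Samples 3 and 4 had -1.63 and -1.57, and samples 2 and 5 had -2.60 and -2.63. How close these values lie depends on the reference. Without *Ywhaz* and *Rplp2*, samples 3 and 4 deviated from the group mean by 0.70 and 0.46, and samples 2 and 5 by -0.79 and -0.36. The lowest *Acvrl1* level of all was -3.36, in DNBS + Nissle sample 1.

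*Acvr2b*, the type II receptor, was like *Inhbb* amplified late. The SD of its levels was 1.17 in DNBS + CEC, 1.06 in DNBS and 0.70 in Healthy, in each the largest of the 6 genes. In DNBS + Nissle the SD was 0.79 over 3 detected samples, and *Tgfb1* also had 0.79. The *Acvr2b* levels were -7.71, -8.33, -5.71 and -6.56 in the DNBS + CEC samples. It had -6.67, -5.31 and -6.67 in DNBS + Nissle samples 1, 5 and 7, and a Ct of 29.3 in sample 4, above the detection limit and left out of the fit. The DNBS samples had -5.56, -8.13, -6.96 and -6.57, against -5.21, -6.29, -5.40 and -6.69 in Healthy. No sample given DNBS exceeded the highest Healthy sample, 4 of the 11 detected lay below the lowest one, and 7 lay inside the Healthy range. *Acvr2b* was -1.18 ± 0.62 from Healthy with DNBS + CEC, -0.32 ± 0.67 with DNBS + Nissle and -0.91 ± 0.62 with DNBS (adjusted p = 0.916, 0.900 and 0.727). With the undetected value kept as measured, the DNBS + Nissle difference was -1.38 ± 0.89, and 1 sample thus decides its size.

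The oral agents were compared with PBS under DNBS, and with each other. None of the 6 genes passed in DNBS + CEC against DNBS (0% of 474 genes), in DNBS + Nissle against DNBS (0% of 474) or in DNBS + CEC against DNBS + Nissle (0% of 471). None of the 6 had an unadjusted p under 0.05 in these comparisons, where 8, 7 and 21 genes of the panel did. *Inhbb* in DNBS + CEC minus DNBS was -0.63 ± 0.45, with a 95% confidence interval of -1.57 to 0.32, and in DNBS + Nissle minus DNBS it was 0.08 ± 0.45, with an interval of -0.86 to 1.03. *Inhbb* in DNBS + CEC minus DNBS + Nissle was -0.71 ± 0.45, with an interval of -1.65 to 0.24. *Ltbp4* was 0.71 ± 0.42 in DNBS + CEC minus DNBS (-0.19 to 1.60), 0.06 ± 0.42 in DNBS + Nissle minus DNBS (-0.83 to 0.95) and 0.65 ± 0.42 in DNBS + CEC minus DNBS + Nissle (-0.24 to 1.54). Except for *Ltbp4* in DNBS + Nissle minus DNBS, these intervals include differences of more than 2-fold, and equal levels are not shown. DNBS + CEC sample 1 had the highest *Inhbb* and the lowest *Ltbp4* of its group. Without it, *Inhbb* was -1.13 in DNBS + CEC minus DNBS (unadjusted p = 0.0065, adjusted p = 0.927, limma) and -1.21 in DNBS + CEC minus DNBS + Nissle (unadjusted p = 0.0040, adjusted p = 0.377). *Ltbp4* was then 1.08 (unadjusted p = 0.0155, adjusted p = 0.927) and 1.02 (unadjusted p = 0.0208, adjusted p = 0.590) in the same comparisons. This sample thus decides the size of these differences, none of which passed with or without it. Both comparisons of DNBS + CEC share the DNBS + CEC samples, and both comparisons with DNBS share the DNBS samples.

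Neutrophil markers were high in most samples given DNBS, the groups with the higher *Inhbb* and lower *Ltbp4* means. The summed level of the 6 neutrophil genes on the panel, of 11 listed and all 6 detected, was 119, 111, 4.09 and 1.24 times the Healthy mean in DNBS + CEC samples 1, 2, 6 and 8. It was 73.0 to 197 times that mean in the DNBS + Nissle samples and 9.17 to 817 times in the DNBS samples, against 0.517 to 1.61 times in Healthy. The samples lowest in these markers under DNBS, DNBS + CEC samples 6 and 8, were also the samples of their group with the highest *Ltbp4*, -0.33 and -0.75. With the 13 reference genes they had *Inhbb* inside the Healthy range. DNBS + CEC sample 2, with 111 times the Healthy mean, had *Inhbb* at -7.14, close to the Healthy range. The order of samples 2 and 8 depends on the reference. Without *Ywhaz* and *Rplp2*, *Inhbb* deviated from the group mean by -0.39 in sample 2 and by -0.22 in sample 8. DNBS sample 4, at 9.17 times the Healthy mean, had *Inhbb* at -6.02. DNBS + Nissle sample 5, at 197 times, had it at -6.23. *S100a8*, a calprotectin subunit of neutrophils, had a level of 4.77 in DNBS sample 3, its highest, where *Inhbb* was -5.42. The 2 endothelial genes of 13 listed, *Selp* and *Sele*, summed to 0.959 to 4.86 times the Healthy mean with CEC, 5.35 to 26.1 times with Nissle and 1.09 to 13.6 times with PBS under DNBS, against 0.611 to 1.38 times in Healthy, where *Sele* was not detected. The 6 monocyte and macrophage genes of 12 listed summed to 0.730 to 1.74 times the Healthy mean with CEC, 0.697 to 1.70 times with Nissle and 1.28 to 2.34 times with PBS under DNBS, against 0.890 to 1.09 times in Healthy, so that the DNBS and Healthy samples did not overlap. The DNBS + Nissle samples were low in B cell and adipocyte genes, although both ranges overlapped with Healthy. The 2 B cell genes of 6 listed had a median sum of 0.476 with Nissle, against 1.06 in Healthy, and the 5 adipocyte genes of 7 listed had 0.312, against 0.789. In the other groups given DNBS these sums, and in all groups those of the T cell, fibroblast and smooth muscle, and epithelial genes, overlapped with Healthy as well. The part of these cells in the results was not tested, and in such bulk RNA fewer cells of a type and less RNA per cell cannot be told apart.

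Of 77 listed genes of the TGF-beta superfamily and its regulators, 35 were on the panel and 25 were tested against Healthy, the 6 genes above and 19 others. None of the 19 passed in any of the 7 comparisons. At an unadjusted p under 0.05, 4 of the 19 were higher and 0 lower in the mean of the 3 DNBS groups than in Healthy. The counts were 2 higher and 0 lower for DNBS + CEC, 3 higher and 2 lower for DNBS + Nissle, and 1 higher and 0 lower for DNBS, and 0 between the groups given DNBS. Over all genes tested, in either direction, 57 of 453 had such a p for the mean of the 3 DNBS groups. For DNBS + CEC it was 25 of 458, for DNBS + Nissle 77 of 457 and for DNBS 45 of 457. The median difference of the 19 was -0.06 for the mean of the 3 DNBS groups, against 0.02 over all genes tested. *Bmp8b*, a bone morphogenetic protein, had the lowest p among them, with levels of -3.19 to -6.45 in DNBS + CEC, -4.79 to -6.73 in DNBS + Nissle and -5.16 to -6.51 in DNBS, against -6.24 to -8.38 in Healthy. The mean of the 3 DNBS groups was 1.82 ± 0.55 from Healthy for *Bmp8b* (adjusted p = 0.122) and 0.73 ± 0.28 for *Itgb6* (adjusted p = 0.256), which encodes an integrin chain that activates latent TGF-beta. *Bmp1*, a procollagen proteinase, was 0.67 ± 0.33 in DNBS minus Healthy (adjusted p = 0.521).

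*Inhba* encodes the beta A chain of activin A, the closest relative of *Inhbb* on the panel. In the DNBS + Nissle samples it had levels of -5.29, -5.85, -5.04 and -5.55, against -6.97, -6.59 and -6.94 in 3 Healthy samples and no detection in Healthy sample 4. These groups did not overlap, and the difference was 1.40 ± 0.50 (adjusted p = 0.197). The mean of the 3 DNBS groups was 0.94 ± 0.42 from Healthy for *Inhba* (adjusted p = 0.351). Between the groups given DNBS, the lowest p among the 19 belonged to *Lefty2*, a nodal inhibitor, at -1.09 ± 0.82 and *Bmp2* at 0.73 ± 0.59 in DNBS + CEC minus DNBS, and *Bmp3* at -0.99 ± 0.67 and the type I receptor *Bmpr1b* at -1.05 ± 0.74 in DNBS + Nissle minus DNBS. In DNBS + CEC minus DNBS + Nissle they were *Tgfb2* at 0.79 ± 0.40 and *Bmp2* at 1.08 ± 0.59 (adjusted p = 0.961 for both). *Bmp10*, *Bmp15*, *Gdf2*, *Mstn*, *Gdf9* and *Nodal* were detected in none of the 16 samples, and *Inha*, whose product pairs with the beta chains to form inhibin, in 6.

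**Figure D4:**
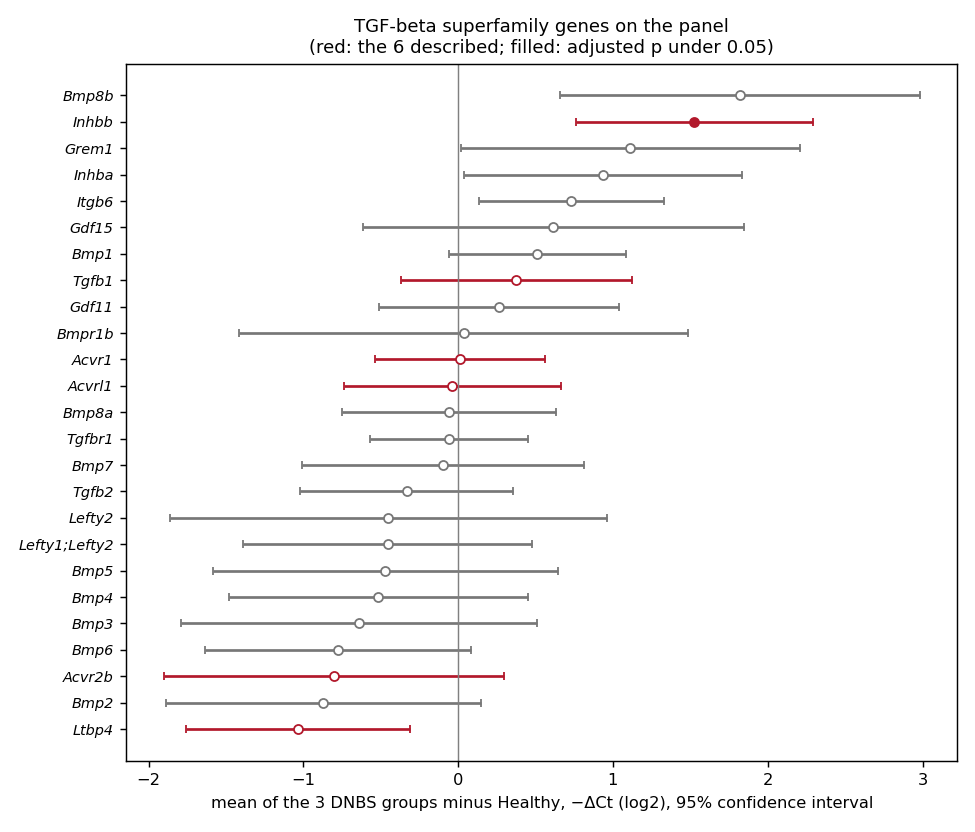
Mean of the 3 DNBS groups minus Healthy in -ΔCt (log2), with 95% confidence intervals, for the 25 tested genes of the TGF-beta superfamily list, ordered by size. *Inhbb*, filled, is the 1 gene that passed, and *Ltbp4* has the lowest difference, -1.03.

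The genes that tracked each of the 6 most closely were found from the SD of their Ct difference over the samples, among genes detected in all 16. For *Inhbb* these were *Il33* (SD 0.60 cycles), *Pla2g7* (0.62) and *Hmox1* (0.64), against a median SD of 1.14 over 411 genes. Within groups, after each group's mean was removed, they were *Tnc* (0.43), *Il1r1* (0.45) and *Cd44* (0.46), against a median of 0.83. For *Ltbp4* they were *Fgf11* (0.34), *Irf7* (0.38) and *Il15* (0.38) over all samples, and *Hdac5* (0.27), *Fgf11* (0.27) and *Il15* (0.28) within groups. The genes close to *Tgfb1* included *Pdgfb* (0.30) and *Stat5b* (0.36), and within groups *Pdgfb* (0.26) and *Vegfb* (0.29). The type I receptor *Acvr1* lay closest to *Rhoa* (0.17), *Cmtm6* (0.18) and *Txlna* (0.18), and *Acvrl1* lay closest to *Cxcl12* (0.25), *Cd97* (0.29) and *Vegfc* (0.33). Within groups *Acvr1* was nearest to *Cklf* (0.14), *Txlna* (0.15) and *Cmtm6* (0.15), and *Acvrl1* kept the same 3 partners, led by *Vegfc* (0.20). *Acvr2b*, over its 15 detected samples, was nearest to *Kit* (0.50), *Aoc3* (0.53) and *Il17rb* (0.57), against a median of 1.06. After group means were removed, its lowest SDs were with the joint *Tnfsf12* assay (0.39), *Bad* (0.43) and *Cdk5* (0.44). For these, the DNBS + Nissle mean that was removed still held the undetected *Acvr2b* value, which is not among the 15 samples. These SDs therefore do not show which genes track *Acvr2b* within groups. All values of a pair come from the same RNA, so these likenesses are descriptions over samples that share their library.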

How the data were processed

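RNA of 16 colonic mucosa samples was run on the TaqMan OpenArray Mouse Inflammation Panel, per the labels' protocols. The authors deposited raw Ct values (recorded as unit other: PCR cycles, 40 for no amplification) for 648 assays of 584 genes, with no normalization, per the file headers; the thresholding software is not given in the sources used here. Of 10368 values, 194 (1.87%) are identical to the average of the 3 remaining samples in the group and 532 have fewer decimals than the rest.

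A level is the mean Ct of 13 reference genes (19 assays) minus the gene's Ct. Assays of a gene were averaged. Values above Ct 28 were set to missing, and a gene was tested where at least 3 samples of each compared group were detected. All 16 samples, with groups from the labels, were fitted with limma 3.58.1 in R 4.3.3 (lmFit, contrasts, eBayes), with Benjamini-Hochberg adjustment over all genes tested at 0.05, after a check on simulated data. Some genes are not reported here.

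The 6 genes, the lists and the tests were chosen with earlier results of these data known. Named genes are the 6, per comparison the 2 superfamily genes with the lowest p, genes of the list that passed, the 3 closest in Ct, and *S100a8*. *Inhba* in the mean of the 3 DNBS groups, genes never detected and *Inha* were named after their values were seen. Sample numbers recur across groups, but same-numbered samples did not deviate together (median r = -0.0685 over 10 pairs, -0.474 to 0.305), so the fit has no block. Alternatives changed the reference, normalization, detection limit, filled-in values, assays and samples, and each sample was left out in turn.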

Additional observations from a re-analysis of the deposited data

Results flagged for a closer look

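Over the 6 genes, 23 groups of 4 samples were looked at, and 2 had a sample far from the rest, both for *Inhbb*. Chance alone singles out about 1 in 20 groups, so 2 of 23 is near that share. In the DNBS + CEC group, sample 1 had an *Inhbb* level of -5.28, against -7.14 to -7.39 in the other samples. In the DNBS + Nissle group, sample 4 had -5.72, against -6.17 to -6.23 in the other samples, of which sample 1 holds a filled-in value.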

How the results depend on the processing

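With 4 samples a group, the standard error of a difference between 2 groups was 0.32 to 0.68 for the 6 genes, largest for *Acvr2b*. The *Acvr2b* assay crossed its threshold late, but so did that of *Inhbb*, and the cause of the larger error was not tested. The reference gene *Ywhaz* ranged from Ct 17.9 to 26.8; without it and *Rplp2*, the *Inhbb* difference of the mean of the 3 DNBS groups was 1.43 (adjusted p = 0.0561). Over 1442 alternative values of the 6 genes, 32 lost a call and 5 gained one, and no called difference changed direction. A further 8, all uncalled, moved by over 1 SD and changed sign. The remaining 1397 kept their side of the threshold without such a change. They include values that moved as far with the same sign, such as *Acvr2b* in DNBS + Nissle minus Healthy, -0.32 in the main fit and -1.38 with a limit of Ct 30. In all, 115 uncalled values changed sign. The alternative in which undetected values were kept, the one without the 3 samples that stand apart and the joint one below were chosen after seeing the data. *Inhbb* in DNBS against Healthy passed with only the compared groups in the fit (adjusted p = 0.044), with sample weights (0.0242) and without DNBS + CEC sample 1 (0.0176). The call for the mean of the 3 DNBS groups was lost without DNBS + Nissle sample 1 or 4 or any 1 Healthy sample. With a limit of Ct 26, *Inhbb* could be tested in 1 comparison, DNBS + Nissle against DNBS (-0.05, adjusted p = 0.996).

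The number of genes called in DNBS against Healthy was 5. It was 1 with the reference without *Ywhaz* and *Rplp2*, all endogenous controls, the 3 most stable reference genes, limits of Ct 26 or 30, few-decimal values missing, undetected values kept, without the 3 samples that stand apart, and with filled-in values missing plus the reduced reference. It was 0 with the global mean, quantile normalization or without both samples with most filled-in values, 2 without the filter, and 12 with sample weights. In DNBS + Nissle against Healthy the count of 11 was 17 with quantile normalization, 4 with Ct 26, 20 with only the compared groups, 19 with sample weights, 0 without both filled-in samples and 6 without the 3 apart. For the mean of the 3 groups the count of 9 was 16 without the filter, 30 with sample weights, 0 without both filled-in samples and 5 without the 3 apart. In DNBS + CEC against Healthy the count of 0 was 1 without the filter. Leaving out each sample gave 0 to 7 calls in DNBS against Healthy, 0 to 1 with CEC, 0 to 14 with Nissle and 0 to 11 for the mean of the 3 groups. The cause of these changes was not tested. Scaling moved the median of all genes in DNBS against Healthy, which was 0.12, to -0.11 with the global mean and -0.18 with quantile normalization.

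With the sample number as a replicate block, 2 genes were called in DNBS against Healthy, 0 in DNBS + Nissle against Healthy and 0 for the mean of the 3 groups. *Inhbb* then differed from Healthy by 1.67 with DNBS, 1.51 with DNBS + CEC, 1.51 with DNBS + Nissle and 1.57 for the mean of the 3 (adjusted p = 0.348, 0.900, 0.332 and 0.167). The numbers are not known to mark shared animals or batches.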
